A study of Mus musculus with 8 samples.

Results

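The genes described here encode the enzymes that attach ubiquitin to proteins and those that take it off again. They were chosen by name, as every non-control probe on the arrays whose gene symbol began with Uba and a digit, with Ube2, or with Usp and a digit. That rule found 93 genes with 150 probes among 36163 gene names with 55681 probes, and they comprised 7 Uba genes, 34 Ube2 genes and 52 Usp genes. A probe was kept when its mean over the 8 arrays passed a log2 signal of 7.82, and a gene was counted as measured when it had at least 1 such probe. That value is the level above which RNA was called bound in the immunoprecipitates. By that filter 82 of the 93 genes were measured (6 Uba, 31 Ube2 and 45 Usp genes, with 136 probes), beside 18706 of all gene names.

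The cells were E14Tg2A, a mouse embryonic stem (ES) cell line of strain 129/Ola, taken as undifferentiated ES cells in serum with LIF (day 0 in vitro) and at 3 steps of neural differentiation in defined medium. These steps were floating epiblast-like aggregates (ELA, day 2), adherent neural progenitor cells (NPC, day 6) and neural precursors (NPC/Neu, day 10). At each stage total RNA was measured on 1 array. On another array the RNA recovered with an antibody against all Argonaute (Ago) proteins, clone 2A8, was measured from the cytoplasm (Ago-RNA). Each of the 8 arrays held a pool of 3 independent experiments, so no condition had a replicate, no test between conditions was possible, and no difference below carries a p-value. Words such as rose and fell compare single arrays. No immunoprecipitation with a control antibody was analysed here. The cultures were bulk samples, in which fewer cells of a type and less RNA per cell cannot be told apart.

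Ubiquitin is a small protein that is joined to lysines of other proteins, most often to mark them for the proteasome and otherwise to change their location, partners or activity. An activating enzyme (E1, the Uba genes) charges ubiquitin with ATP, a conjugating enzyme (E2, the Ube2 genes) receives it, and a ligase (E3) passes it to the target. Ubiquitin-specific proteases, the Usp genes, form the largest family of deubiquitinases and cleave ubiquitin off again, and ES cells use both sides of this cycle to set the half-lives of pluripotency factors and the ubiquitin marks on histones. Argonaute proteins carry microRNAs and hold mRNAs that pair with them, so the RNA that comes down with Ago includes mRNAs under microRNA control. The names are not a perfect guide to function. Usp6nl encodes a GTPase-activating protein for Rab GTPases, Usp39 is a splicing protein without protease activity, and Ube2v1 and Ube2v2 are E2 variants without a catalytic cysteine.

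The question the Ago-RNA arrays address is which mRNAs pass into or out of Ago complexes as cells leave the ES state. The microRNAs best known from these stages share few seeds, the bases 2 to 8 that pair with targets, which are in capitals in the mature sequences from RefSeq (GRCm38.p6) shown here because the site counts given later rest on them. The first pair belongs to the families that dominate ES cells and primed cells and has 1 seed in common, and the others are best known from differentiated and neural cells.
mmu-miR-294-3p: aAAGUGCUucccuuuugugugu
mmu-miR-302b-3p: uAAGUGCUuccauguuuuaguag
mmu-let-7a-5p: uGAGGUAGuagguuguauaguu
mmu-miR-9-5p: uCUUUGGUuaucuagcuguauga

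The DNA letters that pair with the common seed of the first pair, AGCACTT, were found in the 3′ UTR of members of both enzyme families. The windows below are on build NCBI37/mm9, with the site in capitals, and were taken from the Ube2 genes whose Ago enrichment rose most from ES to ELA cells among those with such a site, and from Usp genes with a site whose enrichment fell.
Ube2w, chr1:16561285-16561313, minus strand: actgagaaatgAGCACTTtgatcattcag
Ube2j1, chr4:33139241-33139269, plus strand: ggctttgatgtAGCACTTtacatttccct
Usp49, chr17:47819525-47819553, plus strand: cctgtaaggccAGCACTTgtcaggctgag
Usp49, chr17:47821899-47821927, plus strand: ctcattgctagAGCACTTagcactcgagg
Usp24, chr4:106112149-106112177, plus strand: aaaccattaaaAGCACTTtataagtttat

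A measurement on these arrays is the brightness of a 60-base DNA probe, and 129 of the 150 member probes matched a protein-coding transcript exactly. Of those, 4 are printed because results below turn on them. The first crosses a splice junction of Usp9x, the member with the highest Ago enrichment in ES cells, the next lies in the coding sequence of Usp34, the member enriched at every stage, the third is the Usp24 probe that stood apart from its partner, and the last is the probe of Ube2t, the member whose total RNA fell most.
Usp9x, chrX:12738630-12738777, plus strand: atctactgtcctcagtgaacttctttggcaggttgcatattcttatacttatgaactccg
Usp34, chr11:23387125-23387184, plus strand: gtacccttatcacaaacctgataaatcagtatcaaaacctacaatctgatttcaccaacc
Usp24, chr4:106046293-106046352, plus strand: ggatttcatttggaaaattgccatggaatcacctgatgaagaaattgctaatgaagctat
Ube2t, chr1:136865821-136865880, plus strand: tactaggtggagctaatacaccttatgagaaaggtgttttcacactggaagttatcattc

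Several markers changed as the stage names call for, and some did not. Total RNA of Pou5f1, a core pluripotency factor, had a log2 signal of 15.21 in ES and 14.76 in ELA cells and of 7.98 and 8.31 at the later stages, Fgf5 and Pou3f1 peaked in ELA, and Sox1, Pax6, Nes, Tubb3 and Dcx rose later. Nanog, Zfp42, Klf4 and Esrrb were highest in ES. Zfp42 and Esrrb rose again, from 8.71 and 9.59 in NPC to 9.76 and 11.55 in NPC/Neu. Klf4 was lowest in ELA (9.85) and read 10.90 in NPC/Neu. Sox2 stayed between 13.13 and 13.87, and Otx2 was nearly level after ES. Markers of other germ layers were mixed. Total RNA of Foxa2 rose from 6.76 in ES to 10.10 in NPC/Neu, and that of T from 7.19 to 9.31. Sox17 read 6.82 in ES, 8.08 in NPC and 7.16 in NPC/Neu. Gata4 went from 7.64 in ES to 6.98 in NPC/Neu, and Gata6 was above background in total RNA at no stage. Their part in the results below was not tested. Between 53.4% and 61.2% of spots were well above background on each array. The only spread that could be measured was that between spots of the same probe, with an SD of 0.13 to 0.15 log2 units for an Ago-to-total ratio and 0.18 to 0.21 for a change of that ratio between stages (399 probes printed 10 times). It covers the printing and scanning of 1 array pair and no difference between cultures.

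Ago enrichment, E, is the log2 signal in Ago-RNA minus that in total RNA of the same stage, so an E of 1 is a 2-fold higher normalized signal in Ago-RNA. In ES cells Usp mRNAs were mostly on the Ago side and Ube2 mRNAs mostly were not. The median E was 0.93 over the 45 Usp genes (quartiles 0.45 and 1.28), -0.24 over the 31 Ube2 genes (quartiles -0.62 and 0.10) and 0.02 over all measured genes (quartiles -0.58 and 0.59). An E of at least 1 was reached by 19 of 45 Usp genes (42.2%), 3 of 6 Uba genes and 1 of 31 Ube2 genes (3.23%), against 12.7% of all measured genes. An E of at most -1 was found for 5 Ube2 genes (16.1%) and no Usp or Uba gene, against 14.1% of all measured genes.

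The gap between the families narrowed in aggregates and opened again late. The Usp median exceeded that of Ube2 genes by 1.18 in ES cells and by 0.19 in ELA cells, and the gap was 0.30 at NPC and 1.07 at the NPC/Neu stage. In ELA the medians were 0.21 for Usp and 0.03 for Ube2 genes, and in NPC they were 0.46 and 0.16. In NPC/Neu the Usp median was 0.73 while that of Ube2 genes was -0.34. All 3 families overlapped at every stage.

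Counts past 2-fold followed the same course. In ELA 4 members had an E of at least 1 (Uba6, Ube2w, Usp31 and Usp34) against 4.19% of all measured genes, and none had an E of at most -1, against 2.97%. In NPC there were 11 with an E of at least 1 (13.4% of members against 6.62% of all), 8 of them Usp genes, and 1, Usp16, with an E of at most -1, against 7.14%. In NPC/Neu 14 Usp, 4 Ube2 and 3 Uba genes reached an E of at least 1 (25.6% of members against 13.6% of all), and 6 members, all Ube2 genes, had an E of at most -1 (7.32% against 13.8%). The narrowing in ELA was not particular to these genes. From ES to NPC/Neu the SD of E over members was 0.88, 0.41, 0.60 and 0.96, and over all measured genes it was 0.94, 0.57, 0.74 and 1.02.

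**Figure D1:**
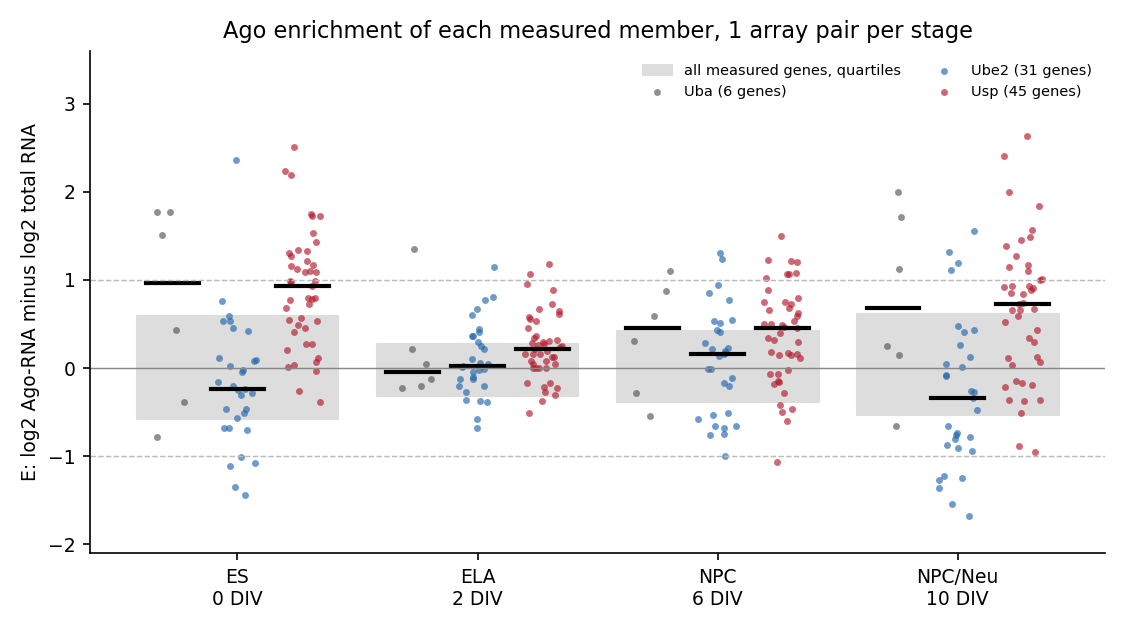
Ago enrichment E (log2 Ago-RNA minus log2 total RNA) of each measured Uba, Ube2 and Usp gene at ES, ELA, NPC and NPC/Neu, 1 point a gene; black bars are family medians, the grey band spans the quartiles of all measured genes and dashed lines mark 2-fold. The Usp median lies above the Ube2 median at every stage, by 1.18 in ES and 0.19 in ELA.

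Single genes kept their side more often than they crossed it. E was above 0 at all 4 stages for 25 of 45 Usp, 6 of 31 Ube2 and 3 of 6 Uba genes, and below 0 at all stages for 2 Usp, 10 Ube2 and 1 Uba gene. In 42 of the 82 members E stayed within 2-fold at every stage. Usp34 was the 1 member with an E of at least 1 at every stage. Among Usp genes 30 of 45 had a lower E in ELA than in both ES and NPC/Neu, whereas 18 of 31 Ube2 genes had a higher E in ELA than in both. The counts of this paragraph were not made over all measured genes, whose E also narrowed in ELA. They are therefore not read as particular to these families.

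E was related to the length of the coding sequence, and the families differ in length. The median coding sequence was 570 bases for Ube2 genes, 2889 for Usp genes and 1359 over all measured genes with a transcript. Spearman's rho between E in ES cells and coding length was 0.77 over 77 members and 0.66 over 13044 measured genes. Within the families it was lower, 0.32 over 30 Ube2 genes and 0.46 over 41 Usp genes. The value over all members thus also holds the difference between the families. This is a description across genes, which share arrays and are not independent replicates. With the length of the 3′ UTR, where most microRNA sites lie, rho was 0.02 over the members and 0.29 over all genes.

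Set against the medians of all genes of like coding length, most of the gap between the family medians was not there. Coding length was brought in after the values had been seen. Up to 750 bases the median E in ES was -0.38 for 22 Ube2 genes and -0.57 for all 2886 measured genes of that length. Above 1500 and up to 3000 bases it was 0.79 for 20 Usp genes and 0.52 for all 3973 genes, and above 3000 bases it was 1.10 for 18 Usp genes and 1.08 for all 1789. After subtracting the median of the gene's own length class, the median was 0.10 for Ube2 genes (19 of 30 above 0) and 0.25 for Usp genes (26 of 41 above 0). In NPC/Neu the same medians were -0.20 and -0.06.

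The members that stood farthest above their length class in ES were Usp5 (1.71 above the class median), Usp9x (1.42), Ube2s (1.33), Ube2o (1.28) and Usp10 (1.22). Among those farthest below were Usp8 (-1.08), Ube2e1 (-0.78) and Usp16 (-0.78). Ube2o is the longest Ube2 gene with a transcript here, with 3867 coding bases, and its E of 2.36 was also above the upper quartile of the long Usp genes (1.5).

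**Figure D2:**
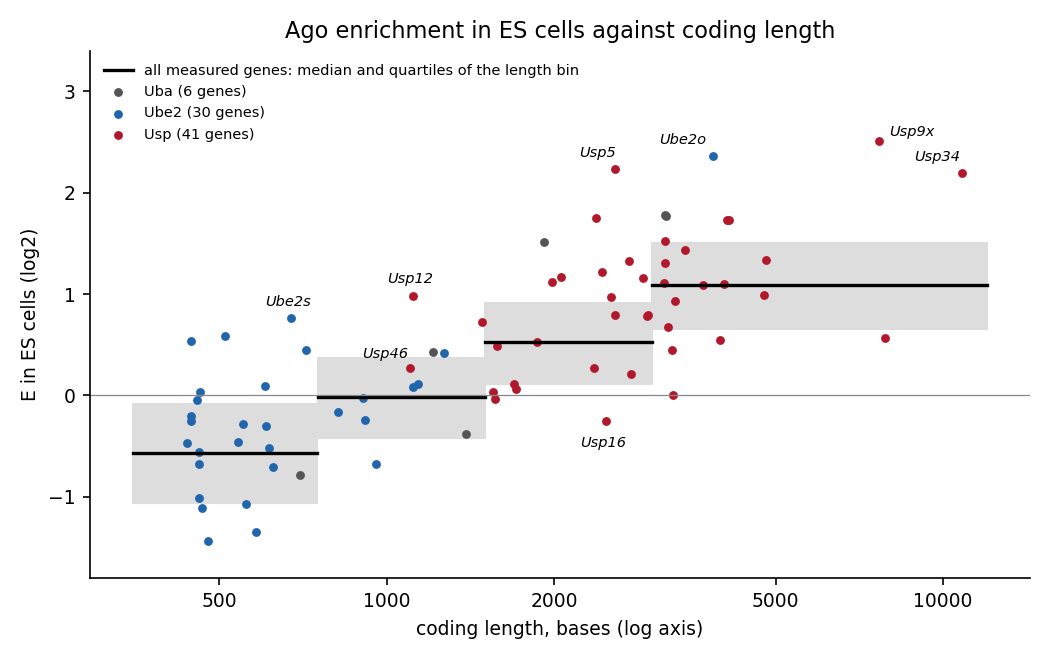
Ago enrichment E in ES cells (log2, vertical) against coding-sequence length in bases (log axis), 1 point for each Uba, Ube2 and Usp gene with a transcript; the grey boxes and black lines give the quartiles and median of all measured genes in each length class. Short Ube2 genes and long Usp genes follow the class medians, which run from -0.57 up to 750 bases to 1.08 above 3000 bases, and Usp5, Usp9x and Ube2o lie above them.

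Among the E1 genes, which start the cascade, Uba1, Uba2 and Uba6 had at least 2-fold more Ago-RNA than total RNA signal in ES cells. Uba1, the main ubiquitin-activating enzyme, had a log2 signal of 14.74, 13.18, 13.76 and 15.46 in Ago-RNA at ES, ELA, NPC and NPC/Neu and of 12.98, 12.96, 12.65 and 13.46 in total RNA. Its total RNA was thus nearly level from ES to ELA while its Ago-RNA dropped. Both were highest in NPC/Neu, where total RNA was 0.80 log2 units above NPC. E was 1.77, 0.21, 1.11 and 2.00 at these stages. Uba6, the other ubiquitin E1, had an E of 1.78, 1.35, 0.87 and 1.72, and unlike Uba1 it stayed past 2-fold in ELA as a mean of 2 probes. Their E differed by 1.00 in ELA and 1.74 in NPC/Neu, so the ELA statement does not hold for both.

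The E1 enzymes of ubiquitin-like proteins were less uniform. Uba2, which with Sae1 activates SUMO, read 18.07, 16.29, 16.48 and 17.05 in Ago-RNA and 16.57, 16.25, 15.89 and 15.92 in total RNA. Its E of 1.51 in ES became 0.04 in ELA, but on the scanner software's processed signals scaled to the 75th percentile, in place of normexp and quantile normalization, the ES value was 0.30. Uba3, the NEDD8 E1, had an E from -0.38 to 0.31.

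Among the E2 genes the family of broad, promiscuous enzymes, Ube2d, Ube2e and Ube2w, had a median E of -0.25 in ES and 0.25 in ELA over 7 genes, and 6 of the 7 had a higher E in ELA. Ube2e1 read 12.84, 14.47, 14.26 and 13.28 in Ago-RNA at ES, ELA, NPC and NPC/Neu and 14.18, 14.67, 14.79 and 14.64 in total RNA. Both ends of the course were low in Ago-RNA and the middle was close to total RNA, so that its E was -1.35, -0.21, -0.53 and -1.36. Its paralogs Ube2e2 and Ube2e3 were less depleted in ES, with an E of -0.30 and -0.70. Ube2w, which puts ubiquitin on the N-terminus of proteins, went the farthest up, from an E of -0.05 in ES to 1.15 in ELA and 1.24 in NPC and back to 0.41 in NPC/Neu, and each of its 3 probes had a higher E in ELA than in ES.

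The Ube2d paralogs differed from each other at the last stage. E in NPC/Neu was 0.43 for Ube2d1, -0.09 for Ube2d2 and -1.22 for Ube2d3, and in ES it was 0.54, -0.20 and -0.25. These enzymes serve many of the same ligases.

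The E2 genes of DNA damage tolerance and K63-linked chains were the role group with the lowest median in NPC/Neu, farthest to the total RNA side late in differentiation. Their median E over 6 genes was -0.54, -0.07, -0.43 and -1.09 from ES to NPC/Neu. Ube2n, the catalytic enzyme of K63 chains, had an E of -1.01, -0.39, -1.0 and -1.68, and Ube2b, a RAD6 homolog, had -0.68, -0.12, -0.75 and -1.54. Ube2v2, a partner of Ube2n, had -0.47, -0.02, -0.68 and -1.27, while the other partner, Ube2v1, had 0.08, 0.01, -0.01 and -0.34. All 3 Ube2v1 probes matched Gm8325 in all 60 bases, so its values are uncertain. The ES value of Ube2n depends on the probe, since with the brightest probe of the gene alone it was -0.03.

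The E2 genes of ubiquitin-like proteins were also low in NPC/Neu and less uniform before. For NEDD8, Ube2f had an E of -1.07 in ES, at probes that also resemble Gm5434, and Ube2m one of -0.29. Ube2l6, the ISG15 E2, had 0.03 in ES, 0.44 in ELA and 0.22 in NPC and ended at -0.75. All 3 of these had an E between -0.66 and -0.78 in NPC/Neu.

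E2 genes of endoplasmic reticulum-associated degradation lay near 0, with a median of -0.09 in ES and 0.23 in ELA over 4 genes. Ube2j1, a membrane-anchored enzyme, had -0.68 in ES and 0.41 in ELA, and Ube2j2 had -0.16 and 0.05. Ube2g1 stood on the Ago side throughout, from 0.59 in ES to 1.32 in NPC/Neu, while its paralog Ube2g2 stayed between -0.03 and 0.28.

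The 2 E2 enzymes of the anaphase-promoting complex went different ways. Ube2c, which starts chains on mitotic substrates, read 14.29, 15.09, 15.19 and 13.57 in Ago-RNA and 14.75, 14.88, 14.65 and 14.37 in total RNA. Its E rose from -0.46 in ES to 0.53 in NPC and ended at -0.80. Ube2s, which extends those chains, had an E of 0.76, 0.61, 0.51 and 1.19, but on processed signals scaled to the 75th percentile its ES value was -0.26, where the median of all measured genes was -0.32.

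Ube2o, a large hybrid of E2 and E3, had the highest E of the Ube2 genes in ES. It read 16.37, 14.75, 15.25 and 15.80 in Ago-RNA and 14.01, 14.39, 13.94 and 14.24 in total RNA. The drop in ELA was in the Ago-RNA and not in total RNA, and E went from 2.36 in ES to 0.36 in ELA, then 1.31 in NPC and 1.56 in NPC/Neu. In ES cells 99.6% of all measured genes had a lower E. At the other end of the remaining E2 genes, Ube2l3, which works with HECT and RBR ligases, had an E of -1.11 in ES and -0.20 in ELA. The paralogs Ube2q1 and Ube2q2 moved apart, with an E of 0.42 and -0.10 in ES and ELA for Ube2q1 and of 0.11 and 0.81 for Ube2q2.

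Among the Usp genes Usp9x, a large X-linked deubiquitinase of signalling and polarity proteins, had the highest E in ES. It read 14.02, 11.97, 12.37 and 13.56 in Ago-RNA and 11.51, 11.08, 10.88 and 10.93 in total RNA at ES, ELA, NPC and NPC/Neu. Ago-RNA was high at both ends of the course with total RNA nearly level, and E was 2.51, 0.88, 1.5 and 2.63. Of all measured genes 99.8% had a lower E in ES.

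Usp5, which takes apart free ubiquitin chains, read 17.44, 15.80, 16.84 and 18.31 in Ago-RNA and 15.21, 15.54, 15.61 and 15.91 in total RNA. Its Ago-RNA was lowest in ELA and highest in NPC/Neu, with an E of 2.23, 0.25, 1.22 and 2.40, and on processed signals scaled to the 75th percentile its ES value was 1.27. Its paralog Usp13 had 0.79, 0.12, 0.17 and 0.84, the same order of stages at a smaller size. Usp14, which trims chains on the proteasome, had 0.72, 0.04, -0.02 and 0.59.

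Usp34, a giant enzyme that acts on axin in Wnt signalling, read 13.33, 12.15, 12 and 12.37 in Ago-RNA and 11.13, 10.97, 10.93 and 10.89 in total RNA. It was enriched at each stage, with an E of 2.19, 1.18, 1.07 and 1.48, and it has the longest annotated coding sequence of the members, 10807 bases. Usp10, known for acting on p53 and in stress granules, had 1.75, 0.24, 0.75 and 1.99, and Usp47, a regulator of DNA polymerase beta, had 1.73, 0.67, 1.07 and 1.84.

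The 12 Usp genes with known nuclear or chromatin substrates had a median E of 0.80 in ES and 0.11 in ELA. Of these 6 reached an E of at least 1 in ES (Usp7, Usp11, Usp28, Usp48, Usp49 and Usp51), against 19 of all 45 Usp genes and 12.7% of all measured genes. The count is thus not read as particular to nuclear enzymes. Usp7, which stabilises Mdm2 and p53 and acts on Polycomb complexes, had 1.44, 0.09, 0.73 and 1.14. Usp16, which removes ubiquitin from histone H2A, was below 0 at every stage, with -0.26, -0.37, -1.07 and -0.95. Its ES value was 0.21 with separate normalization of the Ago-RNA and the total RNA arrays, which also moved the median of all measured genes from 0.02 to 0.24. Usp3, another H2A deubiquitinase, stayed between -0.37 and -0.03, and Usp44, which acts on H2B, had -0.38 in ES.

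At membranes, Usp8, which sorts receptors at endosomes, had an E of 0.01, 0.56, -0.47 and -0.88, and Usp46 was the 1 other Usp gene with a higher E in ELA than in both ES and NPC/Neu. Usp19, which has a form anchored in the endoplasmic reticulum, had 1.73, 0.36, 1.22 and 1.57, and Usp30, of mitochondria, stayed between -0.17 and 0.03. The WDR48-dependent paralogs Usp12 and Usp46 differed throughout. Usp12 read 13.72, 13.47, 13.83 and 14.22 in Ago-RNA and 12.73, 12.74, 12.75 and 13.22 in total RNA, for an E of 0.98, 0.73, 1.08 and 1.00, while Usp46 had 0.27, 0.46, -0.07 and -0.21.

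**Figure D3:**
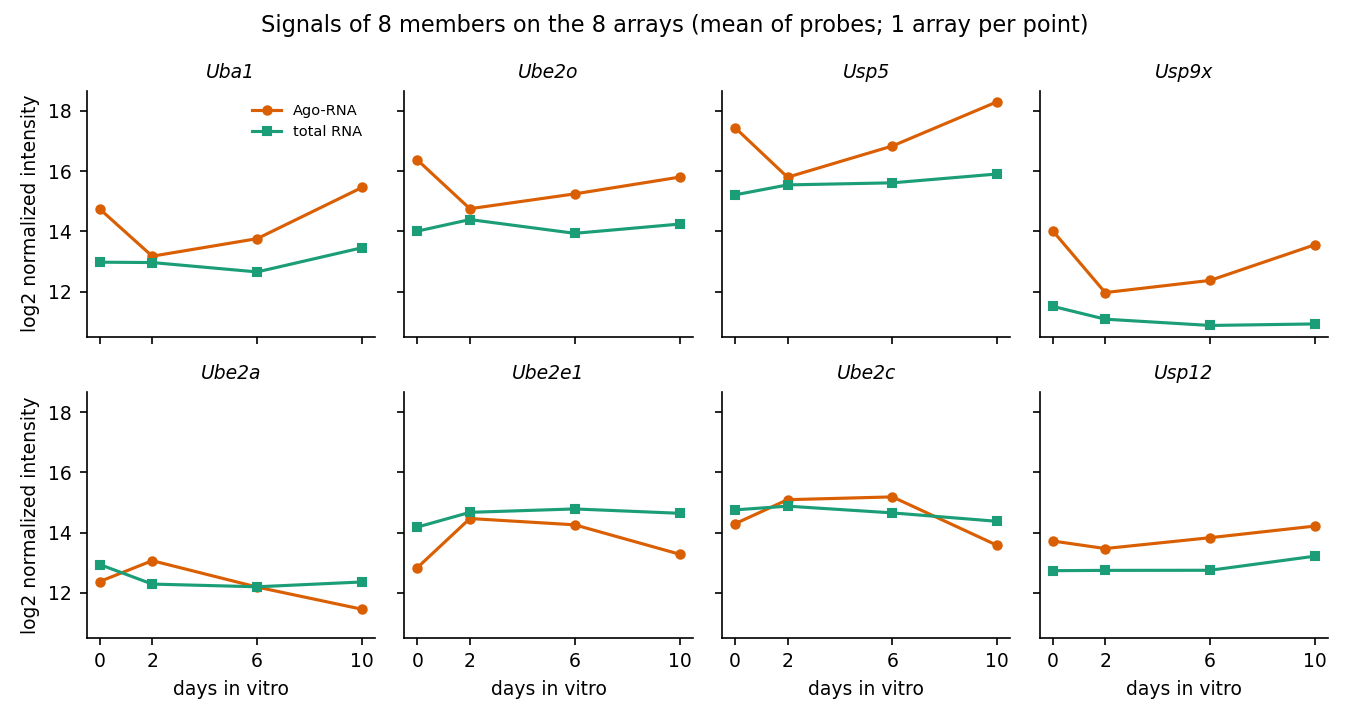
Normalized log2 signal of Ago-RNA and of total RNA by day in vitro (0, 2, 6 and 10) for Uba1, Ube2o, Usp5, Usp9x, Ube2a, Ube2e1, Ube2c and Usp12, 1 array a point. In Uba1, Ube2o, Usp5 and Usp9x the Ago-RNA dips at day 2 with little change of total RNA, in Ube2a, Ube2e1 and Ube2c it is higher at day 2 than at day 0, and in Usp12 it stays 0.73 to 1.08 log2 units above total RNA.

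From ES to ELA cells Usp and Ube2 genes moved in opposite directions. The change of E, later minus earlier, had a median of -0.60 over Usp genes, with 41 of 45 below 0, and of 0.33 over Ube2 genes, with 22 of 31 above 0. It was -0.01 over all measured genes. A fall of E by 1 or more was found for 12 Usp genes (26.7%), 2 Uba genes and 1 Ube2 gene, which is 18.3% of the members against 7.35% of all measured genes. A rise of 1 or more was found for 4 Ube2 genes (Ube2a, Ube2w, Ube2e1 and Ube2j1) and no other member, 4.88% of the members against 9.31% of all.

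The falls were led by Ube2o (-2.00), Usp5 (-1.98), Usp9x (-1.63), Usp11 (-1.58), Uba1 (-1.55) and Usp10 (-1.5). Only 0.310% of all measured genes had a lower value than Usp5. Usp49, which acts on H2B and whose single probe also matches Med20 in all 60 bases, changed by -1.39, and Uba2 by -1.47. The rises were led by Ube2a (1.34), Ube2w (1.20), Ube2e1 (1.14), Ube2j1 (1.09) and Ube2l3 (0.91). Of the Usp genes 4 had a higher E in ELA, Usp8 by 0.55, Usp46 by 0.19, Usp44 by 0.17 and Usp21 by 0.15, and the last 3 changes were no larger than the spot SD of 0.20. Among Ube2 genes the largest falls after Ube2o were those of Ube2q1 (-0.52), Ube2z (-0.47), Ube2r2 (-0.35) and Ube2k (-0.22), and the paralogs Usp20 and Usp33 changed by -0.48 and -1.33.

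Coding length again went with the change. Over all measured genes the median change from ES to ELA was 0.50 up to 750 coding bases and -0.74 above 3000, and for Ube2 genes of the short class and Usp genes of the long class it was 0.45 and -0.76. Relative to their own class the medians were 0.00 for Ube2 (15 of 30 above 0) and -0.16 for Usp genes (23 of 41 below 0). Usp5 fell by 1.59 more than its class, Ube2o by 1.27, Usp10 by 1.11 and Uba2 by 1.08. Usp8 rose by 1.29, Ube2j1 by 1.08 and Ube2a by 0.84 relative to theirs.

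The study called a probe released between stages when its E was at least 2 at the first and at most 0.5 at the second with a change of 1.5 or more, and loaded in the opposite case. By these thresholds 4 members were released from ES to ELA (Uba1, Ube2o, Usp5 and Usp7), against 0.529% of all measured genes. For Uba1 and Usp7 only 1 of 2 probes met the call, with an E of 2.38 against 1.15 at the other probe of Uba1 in ES and of 2.05 against 0.82 at the other probe of Usp7. One member, Ube2a, a RAD6 homolog, was loaded, by 1 of its 2 probes, against 0.182% of all. Usp9x missed the call because it kept an E of 0.88 in ELA.

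Ube2a read 12.37, 13.07, 12.19 and 11.45 in Ago-RNA and 12.94, 12.29, 12.20 and 12.36 in total RNA as a mean of its probes. Its Ago-RNA peaked in ELA where its total RNA was lower than in ES. The calls depended on the processing. On processed signals scaled to the 75th percentile no member was released or loaded, and with separate normalization of the Ago-RNA arrays and of the total RNA arrays only Uba1 and Usp5 were released and none was loaded. On processed signals after quantile normalization Usp49 was released as well, as the fifth member.

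Fewer members passed 2-fold at the later transitions. From ELA to NPC no member was released or loaded, against 0.107% and 0.0374% of all measured genes, and from NPC to NPC/Neu none was either, against 0.0374% and 0.0695%. From ELA to NPC the median change of E was 0.14 for Usp and -0.02 for Ube2 genes. Usp51 (-1.17) and Usp8 (-1.03) fell by 1 or more, against 3.7% of all, and no member rose by 1 or more, against 1.95%. The nearest to it were Usp21 (0.99), Usp5 (0.97), Ube2o (0.95), Uba1 (0.89) and Usp2 (0.86). The other large falls were those of Usp45 (-0.90), Ube2a (-0.79) and Ube2d3 (-0.75).

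From NPC to NPC/Neu the families parted again, with a median of 0.30 for Usp genes (34 of 45 above 0) and -0.42 for Ube2 genes (25 of 31 below 0). Usp10 (1.24), Usp5 (1.18) and Usp9x (1.13) rose by 1 or more, against 2.31% of all measured genes, followed by Uba1 (0.90) and Uba6 (0.84). Ube2c (-1.33) alone fell by 1 or more, against 4.71%, and next were Ube2l6 (-0.97), Ube2e3 (-0.91), Ube2a (-0.90) and Ube2e1 (-0.83). Here the Ube2 genes stayed lower relative to their coding-length class, with a median of -0.25 and 23 of 30 below it, while the Usp median was -0.05. The changes into and out of a stage use the same arrays of that stage with opposite sign, so the fall and the later rise of a gene are not independent of each other.

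Total RNA changed in both directions in both families between ES and NPC/Neu. At least 2-fold higher signals in NPC/Neu were found for 15 members (10 Usp and 5 Ube2 genes), which is 18.3% against 19.1% of all measured genes, and at least 2-fold lower signals for 12 (7 Usp, 3 Ube2 and 2 Uba genes), 14.6% against 19.1%. The median change was 0.31 for Usp and -0.09 for Ube2 genes. Neither share was above that of all measured genes, so what follows describes single genes.

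The largest rises were those of 4 Usp genes. Usp29, an imprinted gene next to Peg3, had a log2 total RNA signal of 6.98, 6.97, 9.42 and 11.35 at ES, ELA, NPC and NPC/Neu, and 7.39, 7.23, 9.26 and 11.16 in Ago-RNA. It was not well above background in total RNA of ELA, so its total RNA in NPC was at least 5.49-fold higher than in ELA, and its probe matched no annotated exon. Usp51, an H2B deubiquitinase, had 9.97, 11.53, 12.24 and 12.72 in total RNA, a 6.73-fold rise from ES that had begun in ELA, and its E went the other way, from 1.12 to -0.51.

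Usp11, an X-linked enzyme of DNA repair, had 10.86, 10.48, 13.23 and 13.50 in total RNA, a rise after ELA by 6.26-fold from ES. Usp3 had 10.30, 10.72, 12.65 and 12.52 and was 4.67-fold higher than in ES. In both the step lay between ELA and NPC. The E2 genes that rose most were Ube2e3 (3.95-fold), Ube2ql1 (3.77-fold), Ube2r2 (3.18-fold) and Ube2e2 (2.81-fold), whereas Ube2e1, their close relative, changed by 0.46 log2 units. Ube2ql1 was not well above background in Ago-RNA of ES cells.

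Falls of total RNA were led by an E2 gene. Ube2t, the E2 of the Fanconi anaemia pathway, had 10.64, 10.92, 9.75 and 8.38 in total RNA, a change of -2.27. Usp28, which stabilises Myc and acts in the DNA damage response, had 15.43, 15.45, 13.49 and 13.25, a change of -2.18 that lay between ELA and NPC. Usp44, which holds back the anaphase-promoting complex and is known to fall when ES cells differentiate, had 8.95, 9.42, 7.23 and 7.09, and was not well above background in Ago-RNA of NPC/Neu.

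Usp15 (-1.87), Usp53 (-1.76), Usp36, of the nucleolus (-1.60), Ube2s (-1.56) and Uba6 (-1.26) followed. Paralogs parted here too. Within Usp4, Usp11 and Usp15, which share a domain layout, the changes from ES to NPC/Neu were 1.06, 2.65 and -1.87, and for Usp25 and Usp28 they were 0.75 and -2.18. For Usp20 and Usp33, both linked to trafficking of receptors, they were 1.35 and 0.67.

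**Figure D4:**
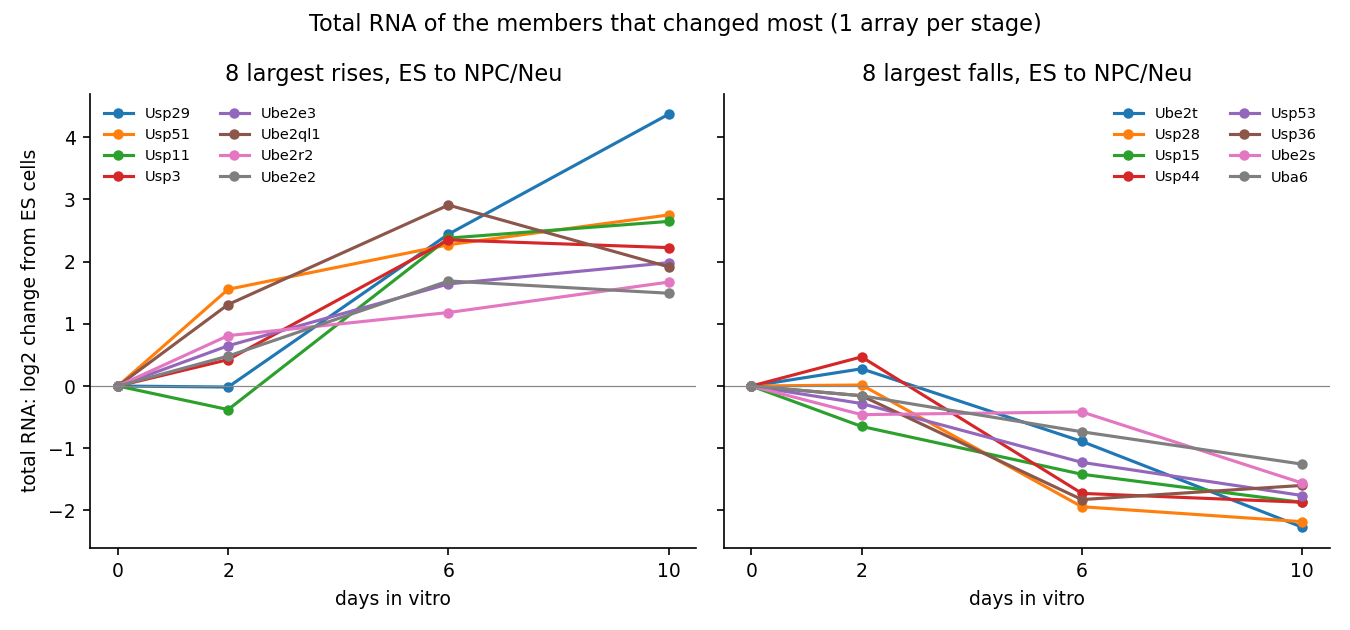
Change of the log2 total RNA signal from ES cells at ELA, NPC and NPC/Neu for the 8 members with the largest rise and the 8 with the largest fall by NPC/Neu, 1 array a point. The rises run from 1.49 (Ube2e2) to 4.37 (Usp29) and the falls from -1.26 (Uba6) to -2.27 (Ube2t).

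Probes for the same gene did not always give the same E. Of 38 measured members with several probes, 15 had probes whose E or change of E differed by 1 or more, 10 of 19 Ube2 genes, 3 of 16 Usp genes and 2 of 3 Uba genes. This count was not made over all measured genes, and a gene with more probes has more room to differ. It is therefore not read as particular to these genes or to a family. Among them were Uba1, Uba6, Ube2a, Ube2d2, Ube2j1, Ube2j2, Ube2l3, Ube2n, Ube2v1, Ube2v2, Ube2w, Usp7, Usp24 and Usp54. The gene values of these 15 are means over unlike probes and are less firm than those of members whose several probes lay closer together. Members with a single kept probe could not be checked in this way.

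In Usp24, a large enzyme with a ubiquitin-associated domain, the 3′ UTR probe had an E of 2.05, 0.85, 1.56 and 1.69 at the 4 stages. Its coding probe, printed above, lies 7813 bases from the 3′ end of the transcript and had -0.92, -0.85, -0.88 and -1.02. The first lay on the Ago side at every stage and the second on the total RNA side. In Ube2a, with both probes in the 3′ UTR, the one 219 bases from the end had 0.48 in ES and 2.18 in ELA, and the one 1003 bases from it had -1.61 and -0.63, so both rose from ES to ELA at levels far apart.

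Ube2n had -0.03 in ES at the probe near its 3′ end and -1.99 at the coding probe. Ube2v2 had 3 probes in its 3′ UTR, and the one 106 bases from the end had 0.80 in ES while the others had -1.0 and -1.20 there. In Ube2l3 the 4 probes lay between -1.63 and -0.50 in ES and between -0.27 and -0.17 in ELA.

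**Figure D5:**
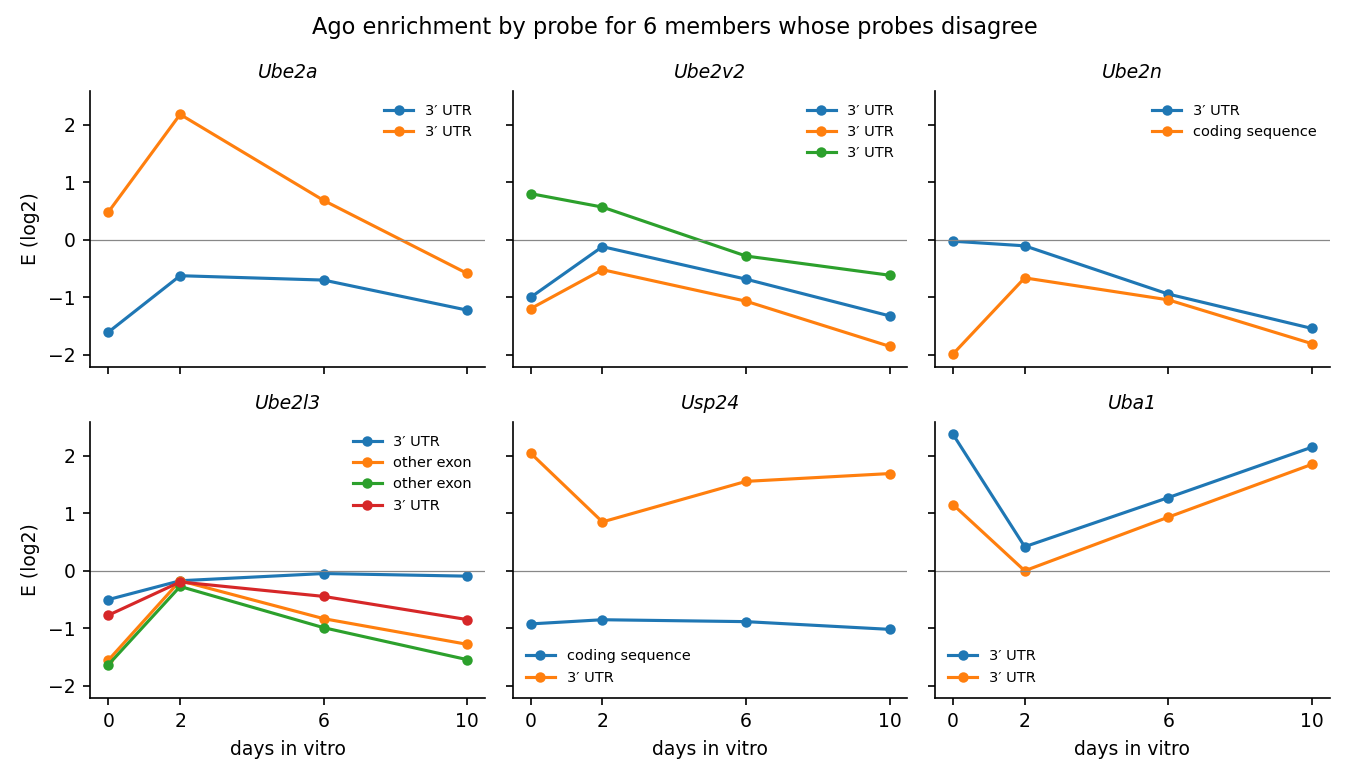
Ago enrichment E (log2) of every probe of Ube2a, Ube2v2, Ube2n, Ube2l3, Usp24 and Uba1 at ES, ELA, NPC and NPC/Neu, 1 line a probe. The Usp24 probes lie on opposite sides of 0 at every stage, at 2.05 and -0.92 in ES, and in ES 1 Ube2v2 probe lies at 0.80 with the others below 0.

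Seed sites were counted on the 3′ UTR of 1 coding transcript a gene, from GENCODE vM1 on NCBI37, on the sense strand. AGCACTT was present in 6 of 30 Ube2 genes (20.0%) and 8 of 41 Usp genes (19.5%), against 14.9% of 12588 measured genes. The let-7 site CTACCTC was present in 1 Ube2 gene (3.33%) and 5 Usp genes (12.2%) against 9.02%, and the miR-9 site ACCAAAG in 4 (13.3%) and 3 (7.32%) against 11.9%. UTRs with AGCACTT were longer, with a median of 2934 bases in Usp genes against 968 without it, and 2168 against 773.5 over all genes. A match of letters is no evidence of binding.

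The change of E from ES to ELA had a median of 0.63 in the 6 Ube2 genes with AGCACTT and 0.23 in those without, and of -0.45 in the 8 Usp genes with it and -0.67 in those without. Over all measured genes the medians were -0.08 and -0.12. Of the genes whose windows are printed above, Ube2w and Ube2j1 changed by 1.20 and 1.09, whereas Usp49, with 2 such sites, changed by -1.39 and Usp24 by -0.56. The Usp49 value rests on a single probe that also matches Med20, and that of Usp24 on 2 probes whose changes differed by 1.27. Usp31, with 1 site, had nearly the same E in ES and ELA, 1.09 and 1.07.

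Beyond the name rule, 40 further genes of the pathway (ubiquitin precursors, other E1 and E2 genes and the other deubiquitinases) were all measured. Their median E in ES was 0.26, with 7 at 1 or more, against 12.7% of all measured genes, and 2 at -1 or less, against 14.1%. The 27 deubiquitinases of other families had a median of 0.28 in ES and a median change of 0.08 from ES to ELA. Over all 40 the rises of 1 or more from ES to ELA were those of Otub1, which inhibits Ube2n (2.18), and Uchl1, of neurons (1.24), against 9.31% of all measured genes. A fall of 1 or more was found for 2 genes, among them Otud4 (-1.07), against 7.35% of all. Birc6, a giant E2 that regulates cell death, had an E of 2.12 in ES, near that of Ube2o. Total RNA of these genes was at least 2-fold higher in NPC/Neu than in ES for 8 and lower for 7. These counts are near the share of all measured genes, 19.1% each way.

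The 11 members that were not measured were Uba7, the ISG15 E1, Ube2cbp, Ube2dnl, Ube2u, Usp17l5, Usp18, the ISG15 protease, Usp26, Usp27x, Usp43, Usp50 and Usp9y. Ube2cbp, Ube2u and Usp9y were well above background on no array. Ube2dnl, a Ube2d-like gene, was well above background on the ES arrays only, with a log2 signal of 8.47 in Ago-RNA and 8.74 in total RNA there and of 6.25 to 6.54 elsewhere, and its probe was close to other sequences. Of the measured members 79 of 82 were well above background on all 8 arrays.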

How the data were processed

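The authors deposited the spot intensity of 8 one-colour Agilent SurePrint G3 Mouse arrays on 1 slide as Feature Extraction 10.7.3.1 wrote it (per the file headers; the submitters' processing notes name 9.1), with no normalization between arrays. Pools of 3 experiments were hybridised. Precision is limited by having 1 array a condition.

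Local background was removed from the mean intensity by normexp with an offset of 50 (limma 3.58.1, R 4.3.3). Control spots and spots of irregular shape were dropped. Quantile normalization ran across all 8 arrays on the log2 scale, and the kept probes of a gene were averaged. The binding threshold of 7.82 lies 3 SD over the mean of the lower of 2 Gaussian components fitted to Ago-RNA with mclust 6.1.1. Other steps used Python 3.11.15, pandas 2.3.3, scipy 1.17.1 and BLAST+ 2.17.0. The steps were tested on simulated data.

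The members, gene lists and naming rule (all Uba genes, released or loaded genes, extremes of E and its changes, the largest total RNA changes, disagreeing probes and paralog pairs) were chosen with earlier results of these data known. Coding length was taken from the transcript with the longest coding sequence (GENCODE vM1, NCBI37), found for 77 of the 82 measured members, and background shares are over 18706 genes. Alternatives changed the offset (16), the scaling, the filter and the choice of probe. Some genes of the pathway are counted but not reported by name here.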

Additional observations from a re-analysis of the deposited data

How the results depend on the processing

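No paired analysis was possible because each stage has 1 Ago-RNA and 1 total RNA array, so a comparison within a stage or between 2 stages has no further pair, and no replicate could be left out. Of 126 alternative values of family medians and counts, 115 stayed close to those reported and 11 moved. Close means a difference below the spot SD or, for counts, an equal or similar number. Those that stayed close include the released and loaded counts of the later transitions, where no setting called any member. The Usp median stayed above the Ube2 median at every stage. In ES the difference of 1.18 was 0.95 with Ago-RNA and total RNA arrays normalized apart and 1.00 without the filter on low signal. Without that filter it was also 0.11 in NPC and 0.87 in NPC/Neu, where it was 0.85 with the brightest probe of a gene and 1.23 on the processed signal after quantile normalization. Released members from ES to ELA numbered 0 after scaling of processed signals to the 75th percentile and 2 with the arrays normalized apart, against 4, and 5 (with Usp49) on the processed signal after quantile normalization, and loaded members numbered 0 in both and with the brightest probe, against 1. Of 468 values of single genes 370 stayed close, 96 moved and 2 changed sign from a value larger than the spot SD. A change of sign of a smaller value was counted as close or moved. Ube2s in ES became -0.26 with the 75th percentile, where the median of all genes was -0.32, and Usp16 in ES became 0.21 with the arrays normalized apart, where it was 0.24, so relative to that median neither changed sides. The 75th-percentile setting shifted the median E of all genes in ES by -0.35 and its change to ELA by 0.17, and the separate normalization shifted the former by 0.21. The causes were not tested. Spots near background limit Usp29, Usp44 and Ube2ql1.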
